A study of Homo sapiens with 12 samples.

Results

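A set of 9 genes that govern apoptosis, BIRC7, BIRC3, BCL2, BCL2L1, BCL2L11, MCL1, BAX, BBC3 and PMAIP1, was followed by RNA-Seq in 201B7, an established human induced pluripotent stem cell (iPSC) line, across 4 culture conditions. BIRC7 was selected on its read counts in Cond 3, and the other 8 genes were chosen by name as its family and pathway partners, with earlier results of these data known. All 9 genes were found by gene symbol, among 58575 genes with a read count and 60617 genes with a TPM value (transcript abundance scaled by gene length and by the library's total). In Cond 1, the control, the cells were maintained in the usual way for this line. In Cond 2, labelled Low nutrient, the StemFit medium was inactivated by heat (56 °C, 30 min). In Cond 3, labelled Differentiation, the cells received DMEM with 10% FBS, MEM NEAA and GlutaMax, and in Cond 4, labelled Physical stimulas, they were pipetted 20 times at passaging. The study dates the inactivated medium to an earlier day of culture than the FBS medium, so exposure in Cond 2 was longer at harvest. Cells of every condition were harvested on Day 5, with 3 libraries per condition. The study calls the replicates technical in its results, while its methods describe the whole arrangement as carried out in triplicate. On either account, p-values measure the spread between these libraries of a single line.

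Apoptosis in vertebrate cells is set off at the mitochondrion by the BCL2 family. The anti-apoptotic proteins BCL2, BCL2L1 (BCL-XL) and MCL1 hold back the pore-forming effector BAX, and the BH3-only proteins BCL2L11 (BIM), BBC3 (PUMA) and PMAIP1 (NOXA) bind and neutralise the anti-apoptotic proteins. Downstream, inhibitor of apoptosis (IAP) proteins such as BIRC7 (ML-IAP or livin), BIRC3 (cIAP2) and XIAP restrain caspases or act in death receptor signalling. Human pluripotent stem cells are known for mitochondria that are primed for apoptosis, BBC3 and PMAIP1 are induced by DNA damage, and BIRC7 is best known from melanoma, where the pigment cell factor MITF activates it.

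The libraries held between 16441148 and 21871503 counts. Counts were tested in 1 edgeR fit over the 12 libraries and 17747 genes, and a gene was called where its p-value, adjusted over all these genes, was under 0.05. Libraries of 1 condition differed by more than counting noise (chi-square per gene from 4.07 to 9.58 over pairs of libraries). All 8 pluripotent stem cell markers had a mean TPM of at least 1 in every condition, and their summed TPM ranged from 5498 to 6746. However, NANOG, TDGF1 and L1TD1 were called lower in both Cond 2 and Cond 3. Mean TPM of NANOG was 45.9 (Cond 1), 22.9 (Cond 2) and 10.5 (Cond 3). SOX2, LIN28A and SALL4 were called higher in both Cond 2 and Cond 3, and DNMT3B and ZFP42 were called higher in Cond 3 only. Over the 8 markers the median log2 fold change was -0.11 for Cond 2 and 0.25 for Cond 3. Thus these markers moved with the conditions in both directions, and their part in the results was not tested. The labels give skin as the tissue, and among markers of skin fibroblasts COL1A1 and COL1A2 were present while DCN and LUM were near 0. The summed TPM of the fibroblast markers was 283 to 306 in Cond 1, 193 to 243 in Cond 2, 530 to 566 in Cond 3 and 233 to 270 in Cond 4, and its part was not tested either. In bulk RNA, fewer cells that express a gene and less RNA per cell cannot be told apart.

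The promoters of BIRC7, which was selected on its reads in Cond 3, and PMAIP1, which had its lowest level in Cond 3, are shown first. Both are the 250 bases before the RefSeq gene start in GRCh38.p14, printed 5′ to 3′ on the forward strand. BIRC7 lies at chr20:63235655-63235904 and its capitals mark the E-box letters CACGTG and CATGTG, which are the letters MITF is known to bind, from 92 to 87 and from 27 to 22 bases before the start. PMAIP1 lies at chr18:59899746-59899995 and its capitals mark GC boxes (GGGCGG on either strand).
BIRC7: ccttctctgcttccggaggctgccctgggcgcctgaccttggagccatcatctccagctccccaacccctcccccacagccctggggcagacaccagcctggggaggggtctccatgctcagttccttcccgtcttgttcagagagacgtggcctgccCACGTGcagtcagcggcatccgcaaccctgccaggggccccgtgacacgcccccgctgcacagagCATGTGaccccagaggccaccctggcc
PMAIP1: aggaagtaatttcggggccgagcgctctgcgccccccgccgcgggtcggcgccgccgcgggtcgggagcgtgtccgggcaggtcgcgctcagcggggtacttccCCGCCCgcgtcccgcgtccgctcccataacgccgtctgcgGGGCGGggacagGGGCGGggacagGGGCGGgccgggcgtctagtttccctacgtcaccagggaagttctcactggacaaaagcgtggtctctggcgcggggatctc
Of all 35116 RefSeq windows of this length, 6.34% held CACGTG, 9.42% held CATGTG and 42.6% held GGGCGG, with both strands searched. The PMAIP1 window had 4 GC boxes, 72.8% GC and 36 CpG dinucleotides. The BIRC7 window had 68.0% GC and 10 CpG dinucleotides, against a median of 58.0% GC over all windows. Windows were found for 8 of the 9 genes (9 windows, with 2 for BCL2L1), and CACGTG occurred in 3 of them (BIRC7, BBC3 and BAX), CATGTG in 2 (BIRC7 and, on the reverse strand, BIRC3) and GGGCGG in 3 (PMAIP1, BCL2L11 and BAX). The BAX window carried CACGTG at 4 places. An NF-kappaB-type motif (GGG and CC with any 5 bases between) occurred in 5 of the 9 windows against 54.4% of all windows, the forkhead motif GTAAACA in 1 (BCL2L11) against 2.98%, and the C/EBP-ATF motif TGATGNAA in 0 against 3.14%. These matches describe letters in the window and no binding was measured.

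**Figure D1:**
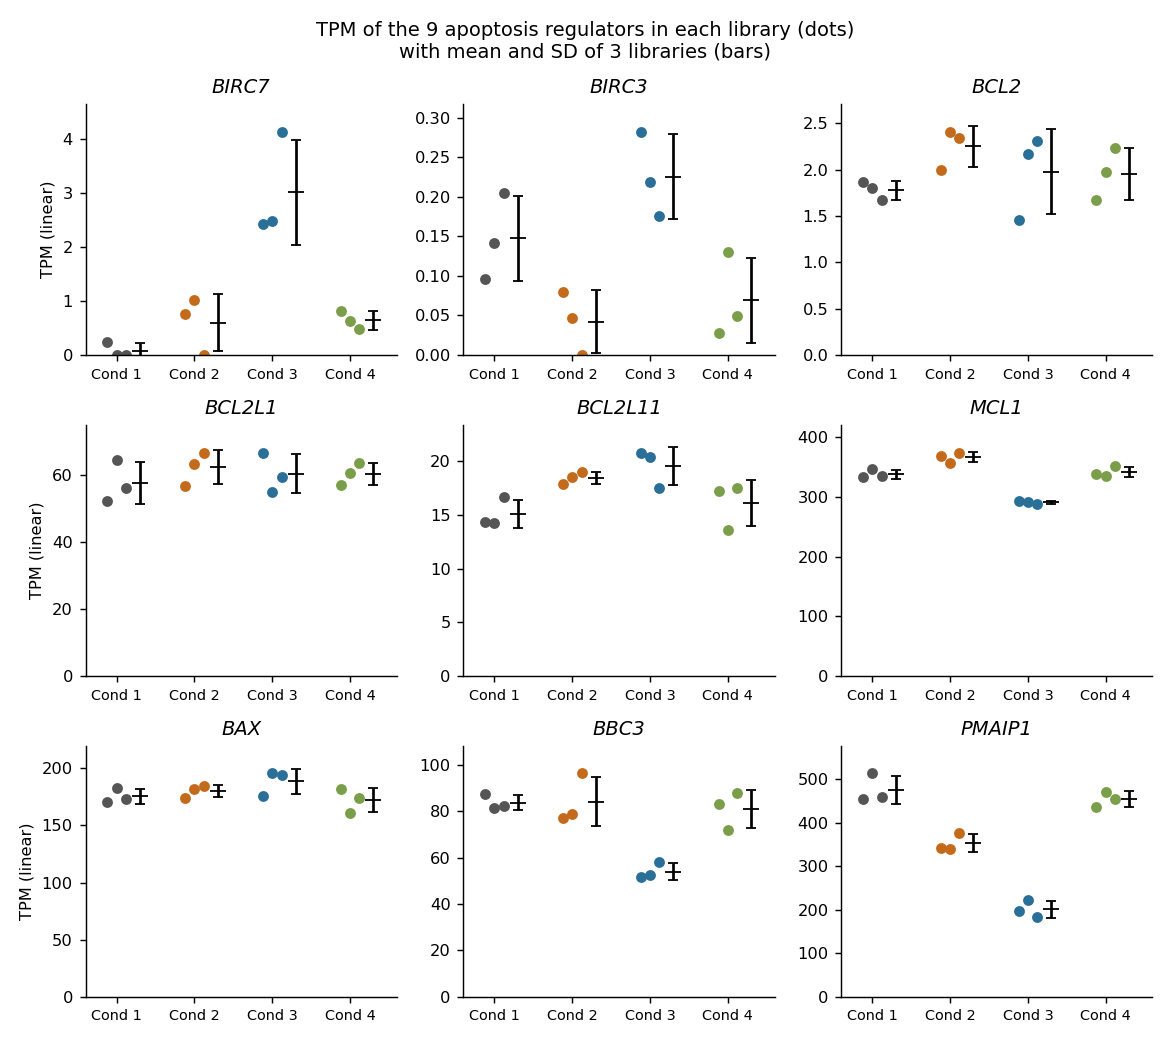
TPM of the 9 apoptosis regulators on linear axes, by condition, with 1 dot per library and the mean and SD of 3 libraries beside the dots. PMAIP1 stepped down from Cond 1 (475 TPM on average) through Cond 2 (352) to Cond 3 (201), BBC3 and MCL1 were lowest in Cond 3, and BIRC7 and BIRC3 stayed at or below 4.13 and 0.282 TPM.

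The 9 genes spanned a wide range of levels per gene length. In Cond 1, PMAIP1 had the highest mean at 475 ± 32.6 TPM (SD, n = 3), followed by MCL1 at 338 ± 7.30, BAX at 176 ± 6.43, BBC3 at 83.8 ± 3.35 and BCL2L1 at 57.6 ± 6.29. BCL2L11 followed at 15.1 ± 1.34 TPM and BCL2 at 1.78 ± 0.101, while BIRC3 (0.147 ± 0.0541) and BIRC7 (0.0781 ± 0.135) lay near the limit of detection. Thus, MCL1 was the most abundant of the 3 anti-apoptotic transcripts, and BCL2 the least abundant, in all 4 conditions.

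BIRC7, an IAP protein that binds caspases and the IAP antagonist SMAC, had very few reads outside Cond 3. BIRC7 (ENSG00000101197) maps to chr20:63235883-63240495 in GRCh38 (forward strand, as annotated by GENCODE), and the last 22 bases of the promoter window printed above lie inside this gene model. Its 3 libraries held 2, 0 and 0 reads in Cond 1, 6, 9 and 0 in Cond 2, 23, 21 and 34 in Cond 3, and 6, 5 and 4 in Cond 4. Every Cond 3 library was above every other library, Cond 4 was above Cond 1, and the Cond 2 libraries overlapped with both Cond 1 and Cond 4. On the TPM scale the means were 0.0781 ± 0.135, 0.594 ± 0.530, 3.01 ± 0.973 and 0.641 ± 0.171 (SD, n = 3) in the order of the conditions. The level in Cond 3 chose the gene and is not a finding.

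The reads of BIRC7, scaled to library size, gave a ratio of Cond 3 to Cond 1 of 36.4, with an exact 95% interval of 9.74 to 306 from 78 reads against 2. Against Cond 2 the ratio was 4.99 (2.85 to 9.34, 78 reads against 15). The ratio was 7.28 for Cond 2 to Cond 1 (1.69 to 65.7, 15 reads against 2) and 7.83 for Cond 4 to Cond 1 (1.82 to 70.5, 15 against 2). These intervals cover counting error only. BIRC7 passed the filter on low counts only through its reads in Cond 3, so its values are a description in every contrast.

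**Figure D2:**
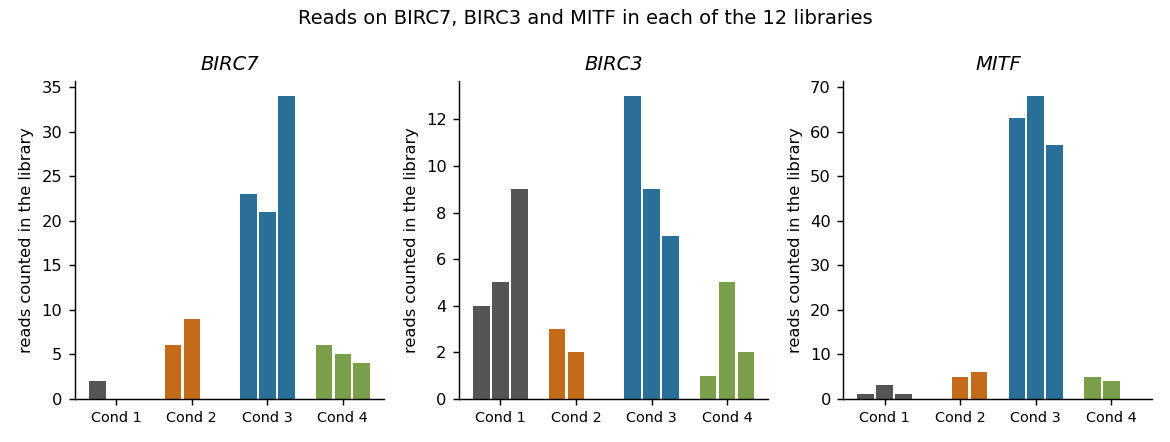
Reads counted on BIRC7, BIRC3 and MITF in each of the 12 libraries, with 1 bar per library on a linear axis and a missing bar for 0 reads. BIRC7 had 21 to 34 reads and MITF 57 to 68 reads in Cond 3, and neither exceeded 9 reads in any other library.

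BIRC3, an IAP protein with ubiquitin ligase activity in TNF receptor signalling, was read even less often. The gene (ENSG00000023445) maps to chr11:102317484-102339403, forward strand. Reads were 4, 5 and 9 in Cond 1, 3, 2 and 0 in Cond 2, 13, 9 and 7 in Cond 3, and 1, 5 and 2 in Cond 4. Cond 3 lay above Cond 2 and Cond 4 without overlap, and Cond 1 overlapped with both Cond 3 and Cond 4. BIRC3 did not pass the filter on low counts. The ratio of scaled reads was 0.270 for Cond 2 to Cond 1 (exact 95% interval 0.0783 to 0.754), 1.50 for Cond 3 (0.807 to 2.87) and 0.464 for Cond 4 (0.174 to 1.12). For Cond 3 to Cond 2 it was 5.57 (2.13 to 18.4, 29 reads against 5), and the spread between libraries is not part of these intervals.

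Of the other IAP proteins, BIRC5 (survivin, active in cell division) had the highest mean TPM at 176 in Cond 1, and XIAP, the direct caspase inhibitor, had 40.2. Of 6 further IAP genes 4 were tested, and NAIP and BIRC8 were listed at 0 TPM in Cond 1. BIRC6 was called higher in Cond 2 (log2 fold change 0.25, adjusted p = 0.0474) and BIRC2 (cIAP1) lower in Cond 3 (-0.29, adjusted p = 0.00358). Against Cond 2, Cond 3 was called lower for BIRC2 (-0.46, adjusted p = 3.31e-05) and XIAP (-0.27, adjusted p = 0.00290). The median log2 fold change of the 4 genes was 0.15 in Cond 2 and -0.05 in Cond 3, against medians of all genes near 0. Among 4 genes that oppose IAP proteins 3 were tested. HTRA2, a mitochondrial protease, was called lower in Cond 2 (-0.58, adjusted p = 0.00216), and SEPTIN4, whose ARTS isoform binds XIAP, was called higher in Cond 3 (1.43, adjusted p = 1.36e-05).

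MITF, which activates BIRC7 in melanoma cells, also had most of its reads in Cond 3. Its reads were 1, 3 and 1 in Cond 1, 0, 5 and 6 in Cond 2, 63, 68 and 57 in Cond 3, and 5, 4 and 0 in Cond 4. In Cond 3 all 3 libraries lay above the other 9, and the mean TPM was 1.55 ± 0.157 against 0.0458 ± 0.0369 in Cond 1. The ratio of scaled reads was 35.1 for Cond 3 to Cond 1 (exact 95% interval 14.8 to 109, 188 reads against 5) and 2.14 for Cond 2 to Cond 1 (0.684 to 7.85, 11 against 5). As with BIRC7, nearly all reads came from Cond 3, and the values are a description. A link between MITF and BIRC7 in these cells was not tested. Of the MITF and pigment cell list, the other gene that passed the filter was PMEL, a melanosome matrix protein, at 151 ± 9.99 TPM in Cond 1, 214 ± 12.4 in Cond 2 and 215 ± 7.43 in Cond 3. PMEL was called in both Cond 2 (log2 fold change 0.42, adjusted p = 1.87e-05) and Cond 3 (0.48, adjusted p = 1.41e-06). Cond 3 against Cond 2 was not called for PMEL (adjusted p = 0.449). TYR and DCT, the enzymes that define pigment cells, were listed at 0 TPM in Cond 1, and PMEL was the only marker of the melanocyte list with a mean TPM of at least 1 in any condition. SOX10 had no count row and was at 5.22 ± 0.143, 10.6 ± 1.15, 9.34 ± 1.24 and 4.77 ± 1.33 TPM in the order of the conditions.

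In Cond 3, the BH3-only genes PMAIP1 and BBC3 and the anti-apoptotic gene MCL1 fell, and BCL2L11 rose. The members tested were 7 in this contrast, with BIRC7 left aside, and 4 were called, 3 lower and 1 higher. Of all genes tested, 38.4% were called in this contrast, with 19.5% higher and 18.8% lower. The fold change exceeded 2 for PMAIP1 alone among the 4.

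PMAIP1 (NOXA) is a BH3-only protein that binds MCL1. Its gene (ENSG00000141682) maps to chr18:59899996-59904305, forward strand. In the 3 libraries it was at 453, 513 and 460 TPM in Cond 1, 342, 339 and 376 in Cond 2, 196, 223 and 183 in Cond 3, and 435, 471 and 454 in Cond 4. The libraries of Cond 3 lay below those of Cond 2, and those of Cond 2 below Cond 1 and Cond 4, without overlap, whereas Cond 4 and Cond 1 overlapped. In Cond 3 its log2 fold change was -1.27 (SE 0.07, adjusted p = 1.99e-12), which left 41.4% of the Cond 1 level. In Cond 2 it was -0.52 (SE 0.07, adjusted p = 4.17e-06), or 69.9% of Cond 1, and Cond 3 was lower than Cond 2 by a log2 fold change of -0.75 (SE 0.07, adjusted p = 1.06e-08).

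BBC3 (PUMA) encodes a BH3-only protein that binds all anti-apoptotic BCL2 proteins, and its gene (ENSG00000105327) maps to chr19:47220822-47232766, reverse strand. Its TPM was 87.6, 81.3 and 82.4 in Cond 1, 77.3, 78.8 and 96.3 in Cond 2, 51.7, 52.3 and 58.1 in Cond 3, and 83.0, 72.0 and 88.0 in Cond 4. Cond 3 lay below the other conditions, which overlapped with each other. The log2 fold change in Cond 3 was -0.66 (SE 0.09, adjusted p = 2.05e-06), or 63.3% of Cond 1. In Cond 2 it was -0.08 (95% interval -0.26 to 0.09, adjusted p = 0.560), and Cond 3 against Cond 2 gave -0.58 (adjusted p = 1.25e-05). Thus PMAIP1 was called in Cond 2 and Cond 3 and BBC3 in Cond 3, each with a called difference between Cond 3 and Cond 2.

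BCL2L11 (BIM), a BH3-only activator, maps to chr2:111119378-111168444, forward strand (ENSG00000153094). Its TPM was 14.4, 14.3 and 16.6 in Cond 1, 17.9, 18.5 and 19.0 in Cond 2, 20.8, 20.4 and 17.6 in Cond 3, and 17.3, 13.6 and 17.5 in Cond 4. Both Cond 2 and Cond 3 lay above Cond 1, and they overlapped with each other. The log2 fold change was 0.35 in Cond 3 (SE 0.10, adjusted p = 0.0101) and 0.20 in Cond 2 (SE 0.10, adjusted p = 0.189), and the difference between both was not called (0.15, 95% interval -0.07 to 0.36, adjusted p = 0.282). The call in Cond 3 was lost without the first Cond 1 library (0.30, adjusted p = 0.0541) and without the first Cond 3 library (0.30, adjusted p = 0.0511). An antisense gene, MIR4435-2HG, shares 727 exonic bases with BCL2L11 and had 41 to 132 reads per library, against 448 to 849 on BCL2L11. The libraries were directional, but the strand setting of the counting is not given in the sources used here.

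Among the other 5 BH3-only genes of the list, 4 were tested, and BMF and HRK were called in both Cond 2 and Cond 3, in opposite directions. Over all genes, 20.9% were called in Cond 2 and 38.4% in Cond 3. BMF, released from the cytoskeleton under stress, was called lower in Cond 2 (log2 fold change -0.31, adjusted p = 0.0471) and higher in Cond 3 (1.03, adjusted p = 7.93e-08). It was at 21.4 ± 4.33 TPM in Cond 1, 18.2 ± 2.60 in Cond 2 and 44.4 ± 0.599 in Cond 3, and the libraries of Cond 1 and Cond 2 overlapped. HRK went the opposite way, with 7.57 ± 1.10 TPM in Cond 1, 11.3 ± 0.445 in Cond 2 (0.48, adjusted p = 0.00574) and 4.06 ± 0.308 in Cond 3 (-0.93, adjusted p = 5.18e-06). BAD and BID were not called in any of these contrasts. BIK had no count row and was compared on TPM, where it was at 29.0, 42.3 and 31.9 in Cond 1, 69.7, 83.6 and 48.5 in Cond 2, 47.4, 34.4 and 35.7 in Cond 3, and 31.8, 42.6 and 37.1 in Cond 4. With limma on log2(TPM + 1) in 14253 genes its difference was 0.93 in Cond 2 (SE 0.19, adjusted p = 0.00370) and 0.18 in Cond 3 (SE 0.19, adjusted p = 0.484). Thus in Cond 2 HRK and BIK rose while PMAIP1 fell, and the decrease of BMF was called close to the threshold.

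**Figure D3:**
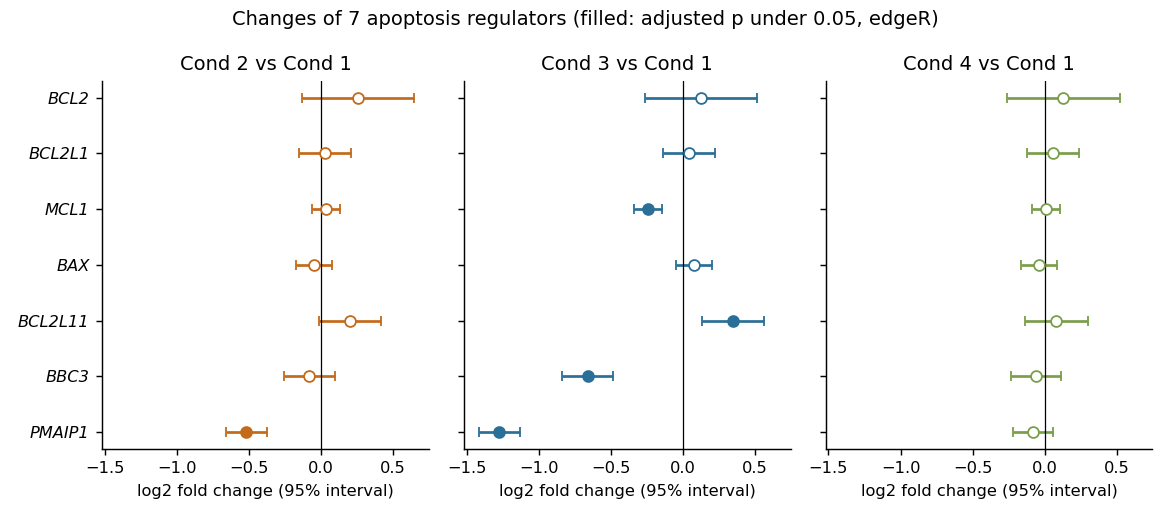
Log2 fold change against Cond 1 with its 95% interval for the 7 members with enough reads in all conditions, from the edgeR fit, with filled points where the adjusted p-value was under 0.05. PMAIP1 was lower in Cond 2 (-0.52) and Cond 3 (-1.27), BBC3 and MCL1 were lower and BCL2L11 higher in Cond 3, and every interval in Cond 4 included 0.

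MCL1, a short-lived anti-apoptotic protein, maps to chr1:150560895-150579738, reverse strand (ENSG00000143384). It was at 333, 346 and 334 TPM in Cond 1, 369, 357 and 374 in Cond 2, 294, 291 and 288 in Cond 3, and 338, 336 and 352 in Cond 4. The Cond 3 libraries lay below all others and the Cond 2 libraries above all others. The log2 fold change on counts was -0.24 in Cond 3 (SE 0.05, adjusted p = 2.61e-04), or 84.5% of Cond 1. In Cond 2 it was 0.03 (SE 0.05, adjusted p = 0.686). On log2(TPM + 1) with limma, Cond 2 gave a difference of 0.12 (adjusted p = 0.0496), in the genes that reached 1 TPM in every library, where the median of all genes was 0.08. The same difference was not called in all genes above 0 (adjusted p = 0.0672). Cond 3 was lower than Cond 2 (-0.28, SE 0.05, adjusted p = 6.35e-05).

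BCL2L1 and BCL2, the other anti-apoptotic members, were not called in any contrast. BCL2L1 (ENSG00000171552; chr20:31664452-31723989, reverse strand) was at 52.2, 64.5 and 56.0 TPM in Cond 1, 56.8, 63.4 and 66.7 in Cond 2, 66.7, 55.1 and 59.3 in Cond 3, and 57.0, 60.6 and 63.5 in Cond 4. All 4 conditions overlapped, and the 95% interval of the log2 fold change ran from -0.15 to 0.21 in Cond 2, -0.14 to 0.22 in Cond 3 and -0.12 to 0.24 in Cond 4. The antisense gene ABALON shares 1735 exonic bases with BCL2L1 and had 6 to 34 reads per library, against 894 to 1354 on BCL2L1. BCL2 (ENSG00000171791; chr18:63123346-63320128, reverse strand) had 1.87, 1.80 and 1.67 TPM in Cond 1, 2.00, 2.41 and 2.35 in Cond 2, 1.46, 2.17 and 2.31 in Cond 3, and 1.67, 1.97 and 2.23 in Cond 4. Although each Cond 2 library was above each Cond 1 library, the log2 fold change of 0.25 (95% interval -0.13 to 0.64, adjusted p = 0.387) was not called at 93 to 162 reads per library. BCL2L2 and BCL2L10, further anti-apoptotic genes, were not called either, and their median log2 fold change was -0.22 in Cond 2 and -0.16 in Cond 3.

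BAX, the pore-forming effector, maps to chr19:48954815-48961798, forward strand (ENSG00000087088). It was at 171, 183 and 173 TPM in Cond 1, 174, 182 and 184 in Cond 2, 176, 196 and 194 in Cond 3, and 182, 161 and 174 in Cond 4, with overlap among all conditions. Its log2 fold change was -0.05 in Cond 2 (95% interval -0.18 to 0.08), 0.08 in Cond 3 (-0.05 to 0.20) and -0.04 in Cond 4 (-0.17 to 0.09). Cond 3 against Cond 2 gave 0.13 (-0.002 to 0.25, adjusted p = 0.114), which was called after upper-quartile normalization (adjusted p = 0.0413) and without the first Cond 3 library (adjusted p = 0.0420). The related effectors BAK1 and BOK were not called in any contrast.

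The ratio of PMAIP1 to MCL1, its binding partner, was 1.41 ± 0.0654 in Cond 1, 0.960 ± 0.0409 in Cond 2, 0.689 ± 0.0679 in Cond 3 and 1.33 ± 0.0662 in Cond 4 (TPM per TPM, SD, n = 3). The lowest Cond 1 library had 1.36, the highest Cond 2 library 1.01 and the highest Cond 3 library 0.765. The ratio of BAX to BCL2 was 98.9 ± 6.49, 80.4 ± 6.00, 98.4 ± 19.7 and 89.5 ± 16.9, and Cond 3 and Cond 4 overlapped with Cond 1. These ratios describe transcripts and are given without a test, since they were formed from genes already described.

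In Cond 2, only the decrease of PMAIP1 was called among the 7 members tested, with BIRC7 again left aside. In this contrast 20.9% of all genes were called, 10.8% higher and 10.1% lower. In Cond 4 the members stayed within -0.08 (PMAIP1, adjusted p = 0.906) and 0.13 (BCL2) on the log2 scale. None of the 7 was called by edgeR, DESeq2 or limma, and none had an unadjusted p under 0.05 in edgeR. Over all genes, 0.0282% were called in Cond 4 (0.0225% higher and 0.00563% lower), and 1102 of 17747 had an unadjusted p under 0.05. Cond 3 and Cond 2 differed in both medium and time of exposure, which cannot be told apart. Between Cond 3 and Cond 2, 3 of 7 members were called, PMAIP1, BBC3 and MCL1, all lower in Cond 3. The background was 38.2% of all genes, 19% higher and 19.2% lower. The 3 contrasts against Cond 1 share the same control libraries.

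Genes that DNA damage induces, as it does PMAIP1 and BBC3, were mostly lower in Cond 3, with 0 of 16 tested called higher and 13 lower, beside 18.8% called lower over all genes. The list's median log2 fold change was -0.76, with all genes at -0.006. GDF15, a secreted stress factor, fell from 125 to 8.01 TPM on average (log2 fold change -3.99, adjusted p = 1.51e-12), GADD45A, a DNA damage response gene, from 55.1 to 25.5 (-1.14, adjusted p = 6.66e-08), and CDKN1A, the cell cycle inhibitor p21, from 58.4 to 13.1 (-2.19, adjusted p = 1.05e-07). FDXR was also lower (-0.79, adjusted p = 2.09e-07). In Cond 2, 1 gene of the list was called higher and 5 lower, beside 10.8% and 10.1% over all genes, with a median of -0.23. RRM2B (-0.73, adjusted p = 7.10e-07), FDXR (-0.54, adjusted p = 6.89e-05) and GDF15 (-0.76, adjusted p = 0.00166) fell, as did PMAIP1. GADD45A rose (0.58, adjusted p = 4.03e-04), and BBC3 was not called (-0.08, adjusted p = 0.560). Whether PMAIP1 and BBC3 share a cause with this list was not tested. Between Cond 3 and Cond 2, 0 genes of the list were called higher and 11 lower, beside 19% and 19.2% over all genes.

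Genes of the ATF4 and CHOP stress response fell together in Cond 3. All 6 genes tested were called lower, beside 18.8% called lower over all genes, with a median log2 fold change of -2.63. CHAC1, which degrades glutathione, fell from 339 to 38.3 TPM (-3.18, adjusted p = 6.73e-15), DDIT4, an inhibitor of mTORC1, from 422 to 81.3 (-2.40, adjusted p = 5.16e-14), ATF3 from 65.1 to 18.3 (-1.85, adjusted p = 1.13e-13) and the pseudokinase gene TRIB3 from 140 to 14.5 (-3.30, adjusted p = 1.67e-13). In Cond 2, 2 of the 6 were called higher and 0 lower, beside 10.8% higher and 10.1% lower over all genes. These 2 were DDIT3, which encodes CHOP (0.43, adjusted p = 0.00876), and ATF3 (0.26, adjusted p = 0.0153). ATF4 had no count row and was at 645 ± 19.8 TPM in Cond 1, 679 ± 11.1 in Cond 2 and 534 ± 16.2 in Cond 3, where limma gave -0.27 (SE 0.04, adjusted p = 3.99e-04).

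**Figure D4:**
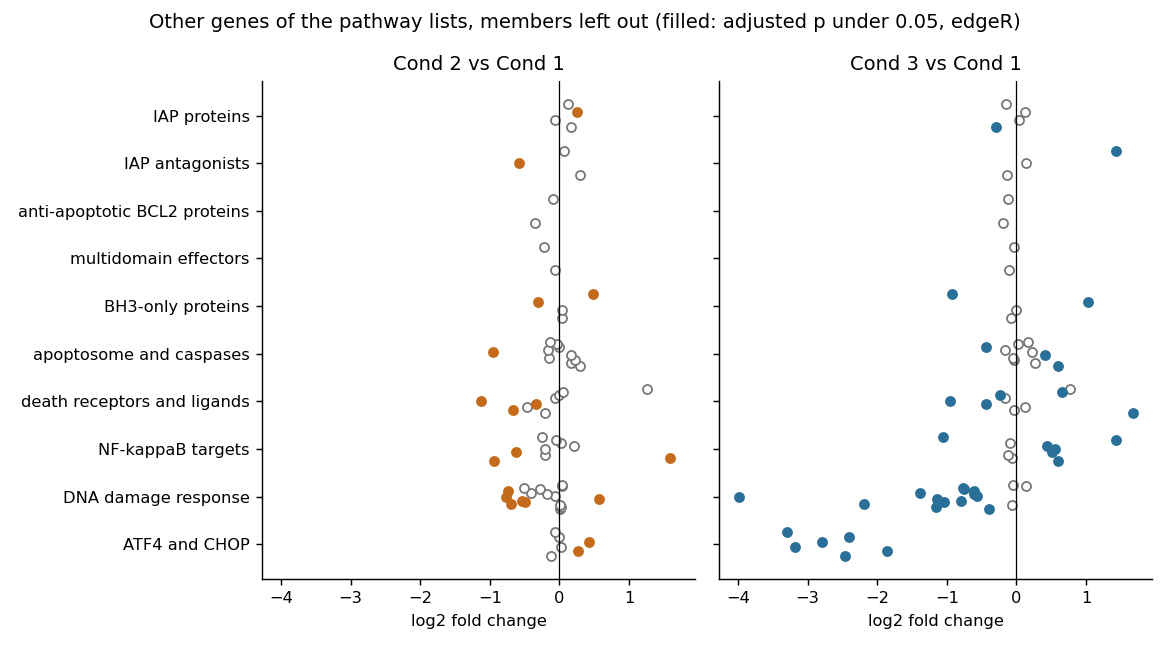
Log2 fold change of the reported genes of 10 pathway lists, with the 9 members left out, in Cond 2 and Cond 3 against Cond 1. Filled points had an adjusted p-value under 0.05. In Cond 3 all 6 genes of the ATF4 and CHOP list were filled on the lower side. So were 13 of 16 genes of the DNA damage response list, beside 18.8% called lower over all genes.

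Downstream of the mitochondrion, 2 of 10 apoptosome and caspase genes were called higher and 1 lower in Cond 3, beside 19.5% higher and 18.8% lower over all genes, so that these shares were near the background. Their median was 0.09. APAF1, the scaffold of the apoptosome, rose (log2 fold change 0.60, adjusted p = 1.61e-04), as did the effector caspase CASP6 (0.41, adjusted p = 0.00232), while CFLAR, which blocks caspase-8, fell (-0.44, adjusted p = 0.00638). In Cond 2, CASP8, the initiator caspase of death receptors, was called lower (-0.95, adjusted p = 0.00111). The other 9 were not called, beside 10.8% higher and 10.1% lower over all genes. The death receptor list also held the signalling partners RIPK1 and TRADD. Of its 9 genes tested, 2 were called higher and 3 lower in Cond 3, against the same background as above for Cond 3. The receptor gene FAS rose from 1.49 to 4.87 TPM (1.67, adjusted p = 4.75e-05) and TNFRSF25 rose as well (0.66, adjusted p = 4.30e-04), whereas TNFRSF10B, a TRAIL receptor, fell (-0.44, adjusted p = 4.51e-05). In Cond 2, 0 genes of this list were called higher and 3 lower, beside 10.8% and 10.1% over all genes. The 3 were led by the kinase RIPK1 (-0.67, adjusted p = 6.56e-05).

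NF-kappaB targets were followed because BIRC3 is one of them. Of 9 tested, 5 were called higher and 1 lower in Cond 3, with a median of 0.44, beside 19.5% higher and 18.8% lower over all genes. In Cond 2, 1 was called higher and 2 lower, with a median of -0.20, beside 10.8% and 10.1% over all genes. NFKB2 (log2 fold change 0.55, adjusted p = 3.26e-06) and TNFAIP3, a feedback inhibitor of the pathway (1.43, adjusted p = 3.34e-05), rose in Cond 3, and TRAF1 fell (-1.06, adjusted p = 7.17e-05). In Cond 2 the chemokine gene CCL2 rose (1.59, adjusted p = 3.59e-04), and NFKB1 (-0.62, adjusted p = 0.00399) and BCL3 (-0.95, adjusted p = 0.00415) fell. Of the DNA damage response, ATF4 and CHOP, caspase, death receptor and NF-kappaB lists, none of the genes tested was called in Cond 4.

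The genes most like each member over the 12 libraries, by Pearson's r of log2 CPM, are given as a description, since the libraries of 1 condition are not independent points. Among the genes nearest to BIRC7 were NOL4L (0.933), ANKRD33 (0.929) and ATF7IP2 (0.917). For NOL4L the mean TPM went from 11.9 in Cond 1 to 18.2 in Cond 3. PMAIP1 was most like SPRY4 (0.986), MYC (0.985) and ETV5 (0.983), and SPRY4 went from 82.5 TPM in Cond 1 to 45.9 in Cond 2 and 16.3 in Cond 3. For BBC3 the nearest were PHGDH (0.986), EIF4EBP1 (0.979) and XPOTP1 (0.978), with PHGDH at 468, 456, 301 and 454 TPM. For MCL1 they were CNN2 (0.983), RGS16 (0.975) and DUSP4 (0.973), and DUSP4 stood at 8.02, 12.3, 2.14 and 9.35 TPM. The uncalled members had less close neighbours, with COG3 at 0.884 for BCL2, RASA4B at 0.872 for BCL2L1 and BEX3 at 0.909 for BAX, and BCL2L11 was nearest to NRDE2 (0.932). The lower r of the uncalled members is no separate finding, since r over these libraries reflects shifts between conditions.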

How the data were processed

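The authors removed poly(A), adaptor and low-quality bases with cutadapt 4.1 and fastp 0.20.1, aligned reads to GRCh38 with HISAT2 2.1.0 and counted them on genes with featureCounts, of which the multi-mapping setting is not given in the sources used here. The authors deposited unnormalized read counts, and TPM values made from these counts and gene lengths (largest relative deviation 1.79e-14 on recomputation). Of 58580 count lines 5 held no whole gene row and were left out, and 2042 genes had TPM only. Counts were tested with edgeR 4.0.16 (TMM, filterByExpr, quasi-likelihood) in R 4.3.3, with Benjamini-Hochberg adjustment over 17747 genes. Alternatives were DESeq2 1.42.0, limma 3.58.1 on log2(TPM + 1) and log2(TPM + 0.1), other normalization and filters, a fold above 2, the replicate block and each replicate left out. The code was tested on simulated data. At a depth of 16441148 to 21871503 counts per library, counting error was large for BIRC7, BIRC3 and MITF, and exact intervals were given. The members and lists were chosen with earlier results of these data known. Named were all 9 members, up to 4 called genes per list and comparison by adjusted p, the nearest genes by correlation and overlapping genes. Coordinates are from GENCODE, promoters from RefSeq. Some genes of the lists and of the nearest genes are not reported here and were left out of the list counts.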

Additional observations from a re-analysis of the deposited data

How the results depend on the processing

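Of 392 values of the 7 members tested under the alternatives, 386 kept their side of the threshold, 4 passed it and 2 lost it. Of the 386, 364 kept their direction and 22, all in contrasts where the member was not called, changed sign. With a fold change above 2 as well, 0 members were called in Cond 2 (PMAIP1 lost), 1 in Cond 3 (PMAIP1) and 0 between Cond 3 and Cond 2, against 1, 4 and 3. In Cond 2, limma on log2(TPM + 1) and on log2(TPM + 0.1), with TPM of at least 1 in all libraries, each called 2 members (MCL1 and PMAIP1). Leaving out single libraries gave 1 to 2 members in Cond 2 (2 without Cond 2 replicate 3, by BIRC7, which passed the filter only through Cond 3), 3 to 4 in Cond 3, 0 in Cond 4 and 3 to 4 between Cond 3 and Cond 2. Same-numbered libraries showed little shared deviation, with correlations of -0.0131 to 0.0379 over 18 pairs. Whether the replicate number marks a shared plate is not given in the sources used here. The replicate block gave the same counts of members called, 1, 4, 0 and 3. Over all genes, a fold change above 2 left 770 genes in Cond 2 of 3701, 1449 in Cond 3 of 6811 and 1557 between them of 6777. In Cond 4, where edgeR called 5 genes, DESeq2 called 16, edgeR without a filter 52, the 6 libraries alone 8 and limma 3 or 8 by its filter. BIRC3, outside the filter, was called once, between Cond 3 and Cond 2 by limma in all genes above 0 (adjusted p = 0.0446), and gave 0.0784 by edgeR without a filter and 0.0573 by DESeq2. The cause of these changes was not tested. Depth limits BIRC7 and BIRC3, which had at most 34 and 13 reads in a library.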
